A study of Mus musculus with 18 samples.

Results

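The regions described here are BMAL1 peaks of mouse heart that overlapped no liver or kidney peak by even 1 bp and that had their centre at most 1 kb from the start or the end of a RefSeq gene. There were 497 such heart-only boundary peaks among the 2519 peaks of the heart list and the 11366 peaks of the 3 lists together. Chromatin immunoprecipitation with sequencing (ChIP-seq) had been run on heart, kidney and liver from C57BL/6 wild type animals aged 3 to 6 months, held in 12 h light and 12 h dark and sampled at ZT6, which is 6 h after lights on. The 18 libraries comprised 3 ChIP and 3 input libraries for each tissue, the tissues came from the same animals, and the peaks of a tissue were called once on all its libraries together. No value therefore has a spread between animals, the depth behind a peak is unknown, and every interval and test below takes peaks as its units and covers counting error only. For the 3 heart inputs, the label for the source gives kidney while titles and tissue labels give heart. Whether kidney input entered the heart list was not tested, and that would touch every heart peak below. Because these are bound regions of DNA and not transcripts, the labelled tissue could not be checked through the expression of its marker genes.

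BMAL1 is a basic helix-loop-helix transcription factor of the circadian clock. It pairs with CLOCK and binds the E-box, whose canonical form is the palindrome CACGTG, at promoters and enhancers of genes such as Per, Cry and Nr1d1, whose products feed back on the pair. Heart muscle has its own clock, and outputs of that clock include metabolism, ion channels and contractile genes.

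The sequences below show what the DNA under these peaks looked like at gene starts. They come from RefSeq promoter windows on GRCm38.p6, each placed on the start of a transcript, and run 5′ to 3′ on the strand of the gene. For Ilk, Lingo3, Gm36201 and Actn2 the transcript start is the outermost start of the gene, and the 250 bases before it are shown. For Aff4, Rpa1 and Bbs7 the transcript start lay 127, 71 and 103 bp inside the gene as counted from its outermost start, and only 30 bases around the motif are shown. Distances of peaks to gene starts elsewhere in the text use the outermost start. Lower case is used throughout except for CACGTG, which stands in capitals. The first 6 belong to the highest-scoring heart-only boundary peaks whose centre lay in a promoter window with CACGTG. The last, Actn2, was added after its values were seen because it belongs to the list of sarcomere genes.
Aff4, chr11:53350703-53350732, plus strand: gcgcggcctggtCACGTGacgctcgcagca
Rpa1, chr11:75348434-75348463, minus strand: cctcggaagagtCACGTGctctgcctgccg
Ilk, chr7:105736340-105736589, plus strand: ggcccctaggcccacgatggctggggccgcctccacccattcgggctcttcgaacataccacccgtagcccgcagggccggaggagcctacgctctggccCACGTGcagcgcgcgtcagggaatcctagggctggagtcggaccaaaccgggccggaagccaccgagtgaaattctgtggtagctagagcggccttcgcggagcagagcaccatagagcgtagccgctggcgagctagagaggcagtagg
Bbs7, chr3:36613388-36613417, minus strand: gctaagatgggtCACGTGtcgagcccgcgt
Lingo3, chr10:80844040-80844289, minus strand: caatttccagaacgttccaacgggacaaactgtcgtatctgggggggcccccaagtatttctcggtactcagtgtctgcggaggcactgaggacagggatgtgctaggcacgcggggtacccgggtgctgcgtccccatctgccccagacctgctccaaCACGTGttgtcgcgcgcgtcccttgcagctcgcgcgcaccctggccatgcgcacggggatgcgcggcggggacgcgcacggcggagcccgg
Gm36201, chr17:67629333-67629582, minus strand: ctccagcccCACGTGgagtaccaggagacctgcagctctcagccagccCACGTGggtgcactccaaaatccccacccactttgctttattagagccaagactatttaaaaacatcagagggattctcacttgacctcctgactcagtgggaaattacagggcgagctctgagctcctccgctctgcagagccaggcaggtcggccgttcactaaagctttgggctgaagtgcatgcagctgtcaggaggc
Actn2, chr13:12340733-12340982, minus strand: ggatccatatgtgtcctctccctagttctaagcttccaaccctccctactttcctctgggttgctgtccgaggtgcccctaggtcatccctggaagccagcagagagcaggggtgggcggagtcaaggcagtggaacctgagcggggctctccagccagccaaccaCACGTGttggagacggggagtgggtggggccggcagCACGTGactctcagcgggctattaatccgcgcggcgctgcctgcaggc
Each CACGTG shown lay inside the peak. At Aff4, which encodes a scaffold of the super elongation complex, the motif began 52 bases before that inner transcript start, and its middle lay 34.5 bp from the peak centre. It began 150 bases before the start of Ilk, the integrin-linked kinase, 18.5 bp from the centre. In the Bbs7 promoter, which drives a subunit of the ciliary BBSome, it began 16 bases before the inner transcript start and lay 33.5 bp from the centre. The peak at the overlapping starts of Rpa1, a subunit of the single-strand DNA binding complex, and Smyd4 was centred inside Rpa1 and held the motif 57.5 bp from its centre, and Lingo3, which encodes a leucine-rich repeat membrane protein, held it 14.5 bp from the centre. Actn2, the alpha-actinin that crosslinks actin at the Z-disc, and the non-coding gene Gm36201 each had 2 copies inside the peak, at 29.5 and 65.5 bp from the centre for Actn2 and at 16.5 and 22.5 bp for Gm36201.

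The highest-scoring peaks whose window held no CACGTG are shown for contrast, on the same build. For Ninj1 these are the 250 bases before the start. For Abhd16a, whose transcript start lay 57 bp inside the gene, they are the 193 bases of the window before the outermost start.
Ninj1, chr13:49187279-49187528, plus strand: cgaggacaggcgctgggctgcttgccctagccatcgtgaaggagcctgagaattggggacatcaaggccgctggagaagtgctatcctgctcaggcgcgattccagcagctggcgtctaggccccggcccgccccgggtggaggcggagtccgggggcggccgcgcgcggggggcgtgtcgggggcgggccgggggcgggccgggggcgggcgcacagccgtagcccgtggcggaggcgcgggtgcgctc
Abhd16a, chr17:35089041-35089233, plus strand: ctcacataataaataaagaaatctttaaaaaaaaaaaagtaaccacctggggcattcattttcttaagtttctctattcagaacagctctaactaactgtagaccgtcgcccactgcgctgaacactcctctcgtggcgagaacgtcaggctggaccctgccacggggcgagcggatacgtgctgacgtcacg
Ninj1 encodes a membrane protein that takes part in rupture of the plasma membrane, and Abhd16a a lipid hydrolase. The Ninj1 window, counted over its 300 bases with the 50 after the start, was 76.3% G and C, and the Abhd16a window 57.0%. Of the 7 windows with the motif, the G and C content ran from 57.7% in Gm36201 to 79.0% in Aff4.

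Heart-only boundary peaks were chosen from 2 facts about the lists. Of the heart peaks 65.0% had no overlap in liver or kidney, and of those 1637 peaks 30.4% lay within 1 kb of a gene end. Near that limit, a peak just inside lay 973 bp from an end of Gm32506, with a score of 17. The nearest outside were 1002 bp from Sh3glb1, 1011 bp from AI597479 and 1014 bp from Dpp8, with scores of 24, 17 and 16. With each list first cut to its better-scored 50%, and overlaps counted after the cut, the rule gave 274 peaks. A heart peak that overlapped only lower-scored liver or kidney peaks counts as heart-only after that cut. The 274 are therefore not a part of the 497, and the classes shift wherever this cut is used below. The 497 peaks were spread over 20 chromosomes, from 39 on chromosome 3 to 4 on chromosome X, and no 2 of them lay within 2000 bp of each other.

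Of these peaks 284 (57.1%) scored at or below the median of the heart list, which is 25, against 50.1% of all heart peaks and 78.2% of heart-only peaks away from gene ends. The score is the authors' whole number per peak, with a scale that is not given in the sources used here, and it was read only within the heart list. It ran from 16 to 97 over the 497 peaks, with a median of 24 and quartiles of 19 and 30, and 158 of them (31.8%) scored 16 to 20. The 1140 heart-only peaks away from gene ends had a median of 19 and quartiles of 17 and 24. The 533 heart boundary peaks shared with another tissue had a median of 54 and quartiles of 35 and 82. The heart-only boundary peaks thus lay between those classes, closer to the other heart-only peaks, and the ranges of the classes overlapped. A score of at least 50 was reached by 19 of 497 heart-only boundary peaks, by 23 of 1140 heart-only peaks elsewhere and by 291 of 533 shared boundary peaks. These values come from the list that chose the peaks and are given without a test.

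**Figure D1:**
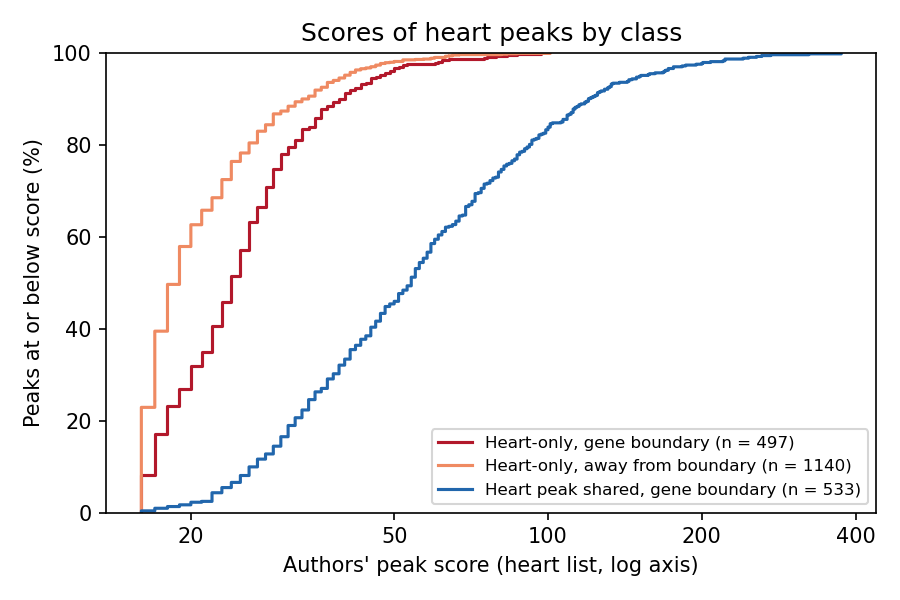
Cumulative share of heart peaks (%) against the authors' score on a log axis, for heart-only peaks at gene boundaries (497), heart-only peaks elsewhere (1140) and heart boundary peaks shared with liver or kidney (533). The medians are 24, 19 and 54, and the curve of the heart-only boundary peaks lies between the others.

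The highest score among the 497 belonged to a peak 278 bp outside Tcap (chromosome 11, 98383435 to 98383632, score 97, rank 152 of 2519). Tcap encodes telethonin, a protein that caps titin at the Z-disc of the sarcomere. A second heart peak lay farther out on the same side (98377910 to 98378107, score 133, rank 66). That second site overlapped a kidney peak of score 25 at rank 2237 of 4034, so it did not belong to the heart-only class. The liver list had no peak inside Tcap or within 10 kb of it.

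Pfkl, which encodes a phosphofructokinase of glycolysis, had the next score. Its heart-only peak (chromosome 10, 78009617 to 78009814, score 87, rank 189) was centred 92 bp after the annotated start. Liver and kidney shared a site just beside it, centred 323 and 351 bp away, with score 165 at rank 98 in liver and score 76 at rank 373 in kidney. The heart list had no peak at that site. Near this start the 3 tissues thus differed in the position of the called peak by less than the 1 kb used to define a boundary. Inside Pfkl or within 10 kb of it, kidney also had a peak at 77978405 to 77978592 (score 41) that no other tissue shared. Heart had a further one at 78015592 to 78015789 (score 16).

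Wee1, a cell-cycle kinase gene known as a clock output, showed another arrangement. All 3 tissues shared a peak there, with score 154 in liver, 107 in kidney and 106 in heart, where it ranked 124. The heart-only peak (chromosome 7, 110122147 to 110122344, score 49, rank 494) lay beside it, 583 bp from the liver peak and 567 bp from the kidney peak by centres. The heart-only peak of Cry1, a clock repressor, lay 402 bp past the 3′ end of the gene (chromosome 10, 85131200 to 85131397, score 20, rank 1624). The peak of Cry1 that all 3 tissues shared lay 54083 bp away, measured to its liver centre, and scored 200 in heart, at rank 24. At these clock genes the heart-only peak was thus the weaker heart peak.

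Actn2 had 2 heart peaks and none in liver or kidney within 10 kb. The boundary peak (chromosome 13, 12340650 to 12340847, score 41, rank 628) was centred 16 bp before the annotated start, and the other (12337875 to 12338072) scored 22. The peak at Hspd1 and Hspe1, the genes of the mitochondrial chaperonin and its co-chaperonin, was centred inside Hspd1, 402 bp from its start, and 307 bp before the start of Hspe1. It was the only heart peak within 10 kb of them (chromosome 1, 55087743 to 55087940, score 43). Liver and kidney shared a site 493 and 481 bp from it, with scores of 112 and 83.

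The 20 highest scores, with ties, named 22 peaks with scores of 49 to 97 and ranks of 152 to 494. The nearest gene was protein-coding for 17 of them, a lncRNA for 4 and a miRNA for 1. The nearest boundary was a start for 12 and a 3′ end for 5, and the strand of the remaining 5 genes was not in the sequence table. Signalling and membrane genes among them were Bmpr1a, a receptor for bone morphogenetic proteins (score 70, centre 74 bp after the start), and Kcnj11, the pore subunit of the ATP-sensitive potassium channel (score 64, 226 bp from an end of the gene). Arl8a, a small GTPase that moves lysosomes, had its peak 202 bp past the 3′ end with a score of 83. Genes of RNA handling and transcription were Scaf11 (score 62), Cnbp, a zinc-finger protein that binds nucleic acids (score 61), and Aff4 (score 60). The others with protein-coding genes were Ninj1 (62), Klhl21, an adaptor of a ubiquitin ligase (53), Smyd4 (52), Ilk (51), Bbs7 (50), B3galt6, an enzyme of proteoglycan linker synthesis (50), Adssl1, the muscle form of adenylosuccinate synthase (49), and Sertad1 (49). The non-coding genes were Mir8120 (79), Gm42284 (76), Gm30141 (75), Gm33519 (52) and Gm32700 (50). Of the 22 peaks, 5 lay within 1000 bp of a liver or kidney peak, and 14 lay over 10 kb from both lists. Over all 497 peaks, 38 (7.65%) lay within 1000 bp of one and 84 (16.9%) within 10 kb, so the 22 were the less isolated.

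The position of the peaks at genes was described next. The centre lay inside a gene for 358 of 497 peaks (72.0%) and outside for 139 (28.0%). The nearest gene end belonged to a protein-coding gene for 404 peaks (81.3%, exact 95% Clopper-Pearson interval 77.6 to 84.6%), a lncRNA for 74 (14.9%) and a pseudogene for 11 (2.21%). The protein-coding share was higher than the 73.8% of the 709 liver-only boundary peaks, by 7.52 percentage points (odds ratio 1.54, interval 1.16 to 2.07, p = 0.00682 by Fisher's exact test, two-sided and adjusted for 3 comparisons by Benjamini-Hochberg). Among only the better-scored 50% of the lists it was 7.67 points higher, with an adjusted p of 0.0609. Against 83.7% of the shared heart boundary peaks (odds ratio 0.847, 0.606 to 1.18, adjusted p 0.488) and 80.1% of the 885 kidney-only boundary peaks (1.08, 0.809 to 1.44, adjusted p 0.621) the test found no difference past the threshold of 0.05. With 2000 bp in place of 1 kb the difference from shared heart boundary peaks was -5.52 points and passed (adjusted p 0.024).

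Genes packed end to end were also counted. Ends of more than 1 gene lay within 1 kb of 113 heart-only boundary peaks (22.7%, 19.1 to 26.7%). The share was 27.4% for shared heart boundary peaks, 23.1% for liver-only and 25.9% for kidney-only boundary peaks, and no difference passed the threshold (odds ratios 0.78, 0.978 and 0.843, with intervals of 0.581 to 1.05, 0.737 to 1.3 and 0.645 to 1.1, adjusted p 0.295, 0.89 and 0.326 from the exact test of Fisher). With 2000 bp in place of 1 kb the difference from shared heart boundary peaks was -9.07 points (adjusted p 0.00157). The most crowded places were a cluster of 4 tRNA genes on chromosome 1 (171102536 to 171102733, score 16) and the ends of Kmt2b, Zbtb32, Mir3569 and Gm32082 on chromosome 7 (30588739 to 30588936, score 31). Kmt2b encodes a histone methyltransferase, and Zbtb32 a zinc-finger repressor.

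Starts could be told from ends for the 372 peaks whose nearest gene had a strand in the sequence table. The nearest boundary was a start for 334 of them (89.8%, 86.2 to 92.7%) and a 3′ end for 38. Against the 94.7% of shared heart boundary peaks that share differed by -4.88 points (odds ratio 0.495, 0.276 to 0.873, adjusted p 0.0207 from the exact test of Fisher). It was 5.86 points above the 83.9% of liver-only boundary peaks (odds ratio 1.68, 1.1 to 2.6, adjusted p 0.0207). Against 91.3% of kidney-only boundary peaks the odds ratio was 0.836 (0.535 to 1.32, adjusted p 0.437). Neither call held with a 500 bp distance (adjusted p 0.0959 for both), with protein-coding genes alone (0.0566 for both) or in the better-scored 50% of the lists (0.313 and 0.119). At 2000 bp the call against liver-only peaks was also lost (0.0583), while the one against shared heart peaks was kept at -9.16 points (6.03e-05 by the same test). Both were kept when centres within 1000 bp counted as shared (0.015 for both).

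Peak centres were then placed relative to the start. Over the 334 heart-only boundary peaks at a start, the centre lay a median of 83 bp after it, with quartiles of 84 bp before and 288 bp after, and 126 peaks (37.7%) were centred before the start. For the 408 shared heart peaks at a start, 206 (50.5%) were centred before it and the quartiles were 111 bp before and 126 bp after. The share centred before the start was 43.4% for 449 liver-only peaks, with a median of 29 bp after it, and 47.5% for 631 kidney-only peaks, with a median of 8 bp after it, so these classes leaned the same way. The centre lay within 250 bp of the start for 57.8% of heart-only and 70.8% of shared heart peaks, 57.7% of liver-only and 68.5% of kidney-only boundary peaks. These offsets are a description and their difference was not tested.

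**Figure D2:**
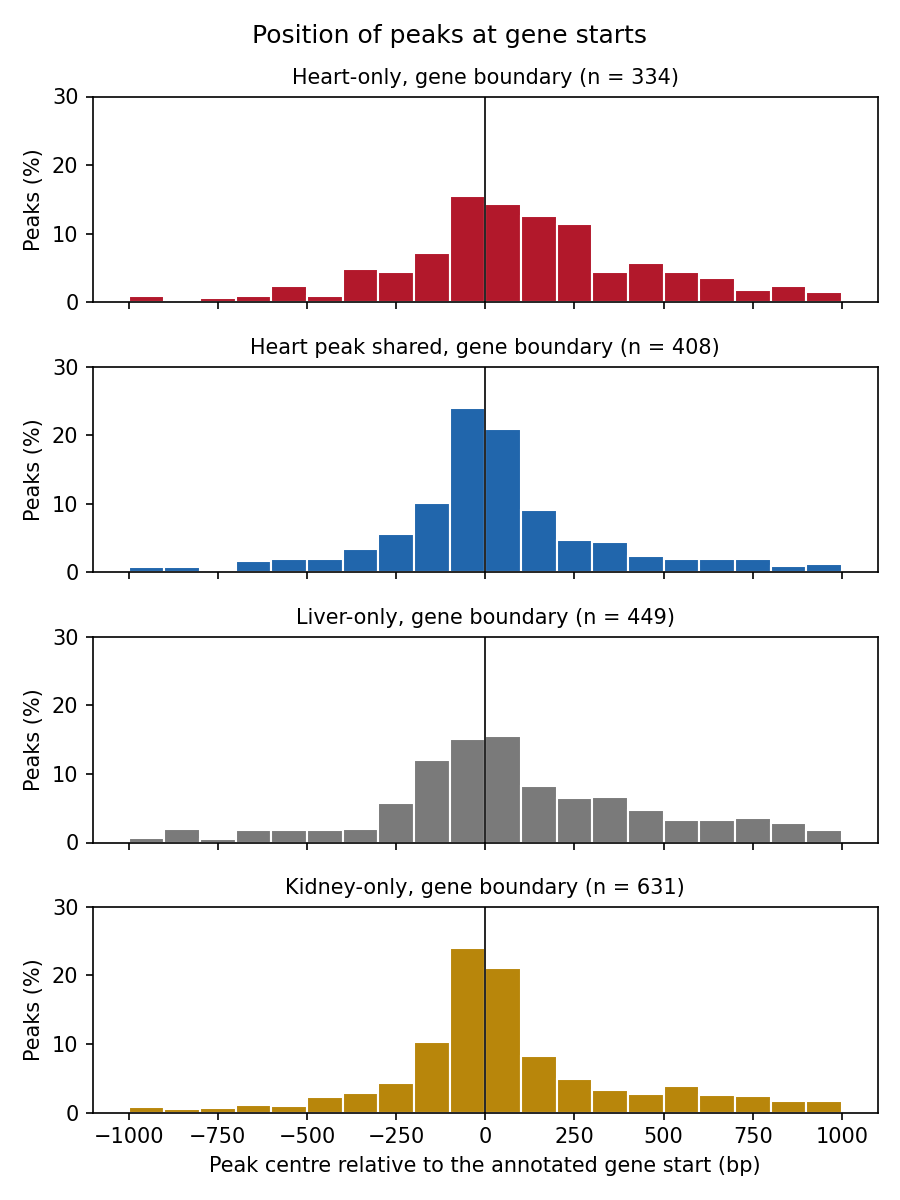
Position of the peak centre relative to the annotated gene start (bp, negative before the start), as the share of peaks (%) in bins of 100 bp, for 334 heart-only, 408 shared heart, 449 liver-only and 631 kidney-only boundary peaks whose nearest gene end is a start. The share before the start is 37.7%, 50.5%, 43.4% and 47.5% in that order.

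Among boundary peaks with their centre in a promoter window, the canonical E-box was less frequent at heart-only than at shared heart peaks. Promoter windows of 250 bases before to 50 after a start were searched for CACGTG, which reads the same on both strands. Of the 139 heart-only boundary peaks with their centre in a window, 32 had a window with the motif (23.0%, 16.3 to 30.9%). Among all 32851 promoter windows the share was 7.15%. The comparison covers 139 of the 497 heart-only and 251 of the 533 shared heart boundary peaks. The rest did not enter it, and the peaks at Tcap, Wee1 and Kcnj11 touched no window and had no sequence to search. Whether this unequal coverage has a part in the difference was not tested. Of 251 shared heart boundary peaks, 132 had it (52.6%, 46.2 to 58.9%), a difference of -29.6 points (odds ratio 0.27, 0.164 to 0.439, adjusted p 3.16e-08 from the exact test of Fisher). Within the shared peaks the share was 59.7% for those in 3 tissues (95 of 159) and 40.2% for those in 2 tissues (37 of 92), so the heart-only peaks stood lowest in this order.

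Single-tissue boundary peaks of the other organs gave shares nearer to that of the heart. The motif was found at 31.6% of 209 liver-only peaks (25.3 to 38.3%) and at 27.9% of 391 kidney-only peaks (23.5 to 32.6%). Heart-only peaks differed from these by -8.56 points (odds ratio 0.648, 0.383 to 1.09, adjusted p 0.134) and -4.86 points (odds ratio 0.774, 0.475 to 1.24, adjusted p 0.315), so neither difference passed the threshold. When any overlap of 1 bp with a window sufficed, both passed, at -10.7 points (adjusted p 0.0107) and -7.32 points (adjusted p 0.038) by the same test. With the motif sought only in the part of the window under the peak, the difference from liver-only peaks was -11.4 points (adjusted p 0.0261). Peaks were 198 bp wide in heart, 242 bp in liver and 188 bp in kidney, which sets how much of a window a peak can cover.

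**Figure D3:**
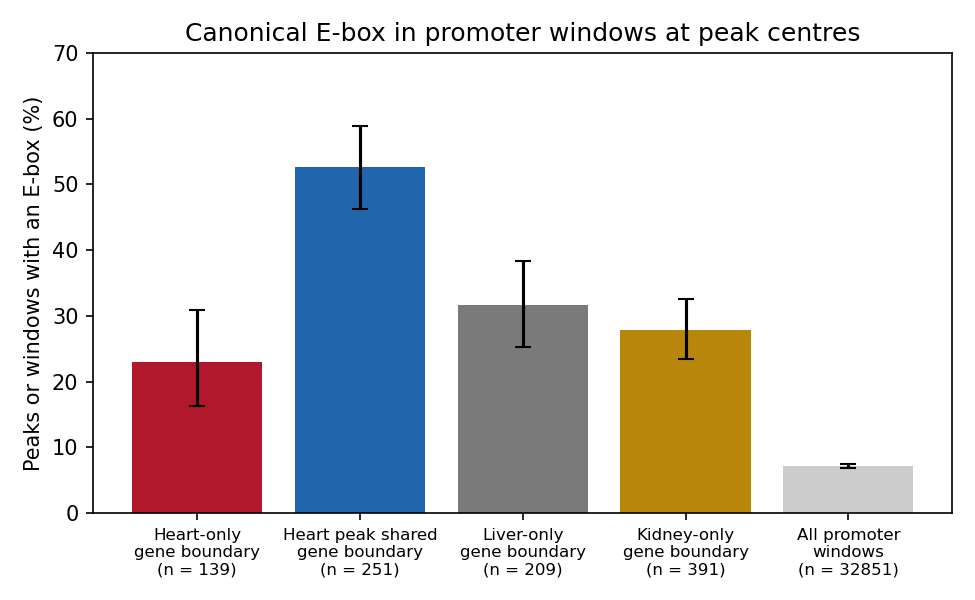
Share (%) with the canonical E-box among boundary peaks whose centre lies in a promoter window, for the 4 classes, and share of all 32851 promoter windows with it. Error bars are exact 95% intervals. Heart-only peaks reach 23.0%, shared heart peaks 52.6% and all windows 7.15%.

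Scores of peaks with and without the motif were set side by side. Among the 139 heart-only boundary peaks the 32 with CACGTG had a median score of 31.5 (16 to 60), and the 107 without had 26 (16 to 62), so the groups overlapped over nearly their whole range. The share with the motif was 34.7% at scores of at least 30 (17 of 49, 21.7 to 49.6%), 14.3% at 20 to 29 (10 of 70, 7.07 to 24.7%) and 25% below 20 (5 of 20, 8.66 to 49.1%). Shared heart boundary peaks with scores of 30 to 62, the range of the upper heart-only peaks, held it in 48.2% of cases (55 of 114, 38.8 to 57.8%), and those below 30 in 34.5% (10 of 29, 17.9 to 54.3%). The heart-only share was thus the lower one in each of these ranges, with overlapping intervals, and such overlap does not decide whether the shares differ. Below 30 the ranges are not matched, because only the heart-only peaks were split at 20. How much of the difference goes with score was not tested. With each list cut to its better-scored 50% before overlaps were counted, the difference from shared heart peaks was -25.6 points (adjusted p 5.05e-05 from the exact test of Fisher). Because that cut also changes which peaks count as shared, it does not compare the same classes at matched scores.

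Where an E-box was found in a promoter window that the peak touched, its median distance from the peak centre was larger for heart-only boundary peaks. Taking every promoter window that a peak touched, the nearest CACGTG was a median of 41.5 bp from the centre for 37 heart-only boundary peaks, with quartiles of 20.5 and 107.5 bp. The median was 21 bp for 148 shared heart peaks, 24.5 bp for 79 liver-only and 27.5 bp for 120 kidney-only boundary peaks. A motif within 25 bp of the centre was found for 10 of the 37 (27.0%) and for 84 of the 148 (56.8%). The windows end 50 bases after a start, so a nearer CACGTG beyond that point would be missed. Centres at starts lay a median of 83 bp after the start for heart-only boundary peaks and at -1.5 bp for shared heart peaks. The limit can therefore weigh unequally on the classes, and its part in the distances was not tested. These distances are a description, without a test.

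**Figure D4:**
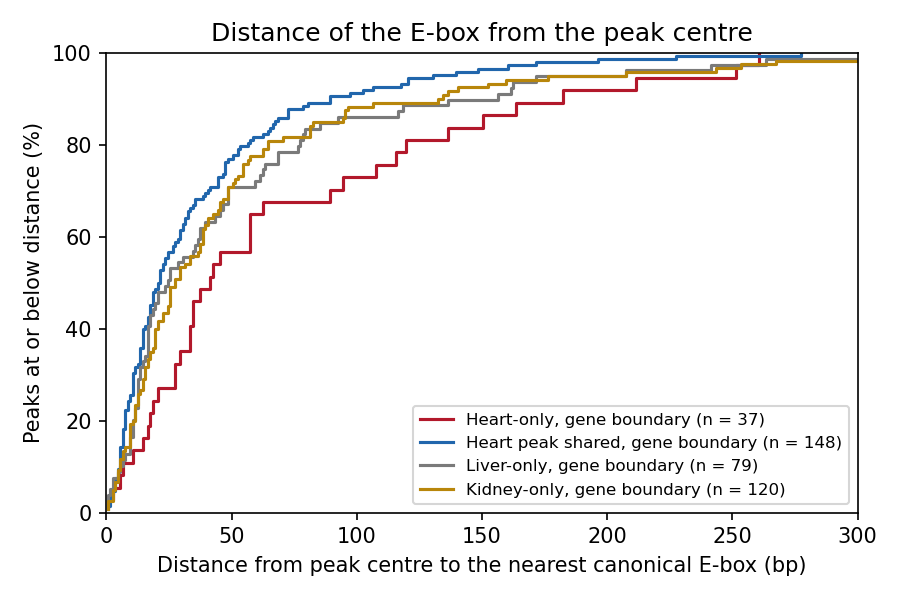
Cumulative share of peaks (%) by the distance (bp) from the peak centre to the nearest canonical E-box in a promoter window that the peak touches, for 37 heart-only, 148 shared heart, 79 liver-only and 120 kidney-only boundary peaks. The heart-only curve lies lowest over most of the range, with a median of 41.5 bp against 21 bp for shared heart peaks; the axis ends at 300 bp.

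The 32 peaks had an E-box in a window at their centre. In 26 of the 139 (18.7%) it lay in the part of the window under the peak. Among the 32, which were picked out after the values were seen, protein-coding genes with known roles included Actn2 (score 41), Cfl2, the muscle cofilin that severs actin filaments (31), Ogdhl, a relative of the oxoglutarate dehydrogenase subunit (29), and Adprhl1, an ADP-ribosylhydrolase-like gene (26). Others were Glyr1 (43), Dhx33 and Secisbp2, which binds the selenocysteine insertion element (40 each), Bptf, a chromatin remodeller (38), and Nol11, a nucleolar protein (29). Naglu, a lysosomal enzyme that degrades heparan sulfate, scored 35. At the low end stood Cck, which encodes the peptide hormone cholecystokinin (18), and the start of Gm26597 beside Flt3, a receptor kinase gene of blood progenitors (16).

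Other short motifs were counted in the same windows, on both strands and without a test. Shares at peaks are again per peak, and those over all windows per window. The GC box GGGCGG was present for 74.1% of heart-only boundary peaks (103 of 139) against 86.1% of shared heart peaks and 35.7% of all windows. The CCAAT box was present for 28.1% against 38.6% and 37.4%, and CCGGAAG, a core bound by ETS factors, for 10.8% against 17.1% and 8.86%. TGACGTCA, the full cAMP response element, was present for 6.47% (9 of 139) against 3.98% and 1.79%. The general E-box CANNTG, which includes CACGTG, was present for 71.9% against 78.5% and 72.3%. GATAAG, a core bound by GATA factors, was present for 2.16% (3 of 139) against 1.99% and 7.44%. At liver-only and kidney-only boundary peaks the shares were 67.0% and 76.2% for GGGCGG, 37.8% and 34.3% for CCAAT, and 10.5% and 20.7% for CCGGAAG. They were 2.87% and 4.6% for TGACGTCA, 74.2% and 72.9% for CANNTG, and 6.7% and 3.32% for GATAAG. The windows at heart-only boundary peaks were rich in G and C, with a median of 69.7% against 68.0% at shared heart peaks, 62.0% at liver-only, 66.7% at kidney-only peaks and 52.7% over all windows. Whether base composition has a part in the motif shares was not tested. The median ratio of observed to expected CpG was 0.879 at heart-only and 0.881 at shared heart peaks. It was 0.719 at liver-only and 0.849 at kidney-only peaks, and 0.384 over all windows.

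Distances to the other lists showed how many of the 497 were near neighbours of a liver or kidney peak. The nearest liver or kidney peak was a median of 62426 bp away, with quartiles of 19065 and 150424 bp, and the closest was at 206 bp. It lay within 1000 bp for 38 peaks (7.65%, 5.47 to 10.3%), 12 of them near peaks of both organs, 13 near liver alone and 13 near kidney alone. For the 1140 heart-only peaks away from gene ends 14 (1.23%) were that close. The share was 5.5% for liver-only boundary peaks and 5.99% for kidney-only boundary peaks, each measured against the other lists. The median score was 28 for the 38 close peaks and 24 for the 459 others, with highest scores of 87 and 97. The closest cases were at Dtymk, a thymidylate kinase gene (score 27, 206 bp from a kidney and 232 bp from a liver peak), Gnl1 (score 43, 225 bp from a liver peak) and Gm52215 beside Kif21a (score 23, 243 bp from a kidney peak). These distances follow in part from the rule, which asked for no overlap, and have no test.

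**Figure D5:**
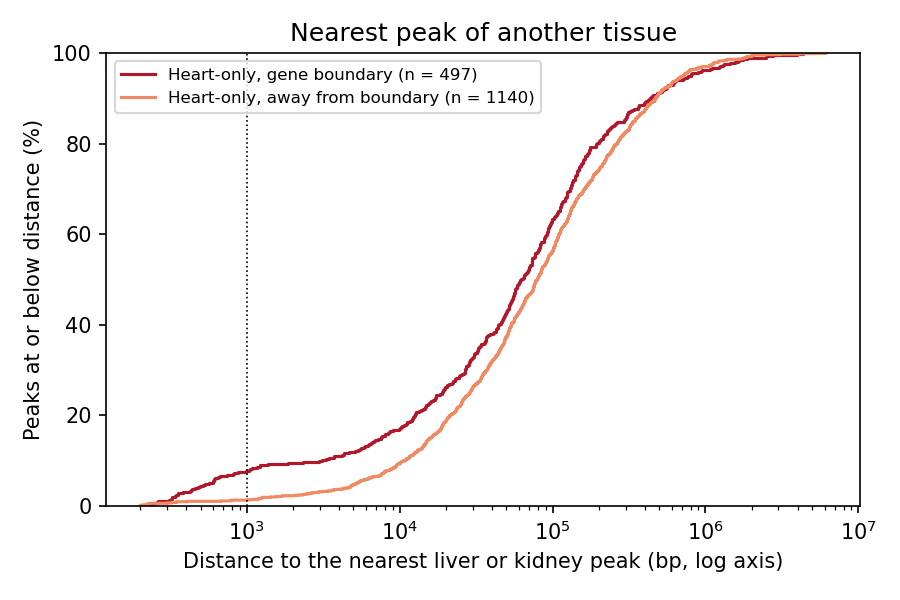
Cumulative share of peaks (%) by the distance from the centre of a heart-only peak to the centre of the nearest liver or kidney peak (bp, log axis), for 497 peaks at gene boundaries and 1140 elsewhere; the dotted line marks 1000 bp. Of the boundary peaks 7.65% lie at or below that line, and of the others 1.23%.

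At the level of genes, the 497 peaks lay at ends of 616 genes, 472 of them protein-coding, which is 2.16% of 21887 protein-coding genes. No gene had 2 of these peaks at its ends. Of the 472, 309 (65.5%) had no liver or kidney peak inside them or within 10 kb, against 73.6% of all protein-coding genes. Of the rest, 54 had peaks of both organs, 64 of liver alone and 45 of kidney alone. A liver or kidney peak lay within 1 kb of an end of 51 of the 472 genes (10.8%), against 10.9% of all protein-coding genes, so the share was near the background. Over all protein-coding genes, 6.7% had a liver peak, 8.05% a kidney peak and 4.6% a heart peak of any class at an end.

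Lists of genes with known roles were then read against the 2.16% of all protein-coding genes. Over 18 lists with 533 distinct genes, 21 genes had a heart-only boundary peak (3.94%), and 13 had one within 500 bp of an end. The lists were chosen with earlier results of these data known, so the 3.94% is a description and no measure of an excess. Clock genes and outputs had it at 2 of 20 genes (Wee1 and Cry1), while 15 of the 20 had a heart peak of any class at an end, and 15 each a liver or a kidney peak. Of the 40 sarcomere and Z-disc genes 2 had one, Tcap and Actn2, and these were also the list's only genes with any heart peak at an end; liver peaks lay at 1 of the 40 and kidney peaks at 2.

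Genes of calcium handling and ion channels had it at 3 of 40. They included Kcnj11 (score 64) and Cacna2d1, an auxiliary subunit of voltage-gated calcium channels (17), and those 3 were the list's only genes with a heart peak of any class at an end. Among 30 cardiac transcription factors only Hand1, a basic helix-loop-helix factor of ventricular development, had one (chromosome 11, 57827860 to 57828057, score 18). Natriuretic peptides and cardiac hormones (21 genes), fatty acid oxidation (30) and the respiratory chain with ATP synthase (44) had none, although 3 genes of fatty acid oxidation had a heart peak of another class at an end. Glycolysis and glycogen had 2 of 37, Pfkl (87) and Pkm, which encodes pyruvate kinase (30).

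Signalling lists held a few each. MAP kinases and Dusp genes had 3 of 31, which were Map3k5, a stress-activated kinase (score 33), Map2k1, which phosphorylates ERK kinases (27), and Braf (17). Ddit4, an inhibitor of the mTOR pathway (25), was the single case among 35 genes of insulin, PI3K and mTOR signalling, and Tfeb, the factor that drives lysosomal genes (30), among 36 of ubiquitin and autophagy. Heat shock and chaperone genes had 2 of 30, Hspd1 and Hspe1, which share 1 peak. Ribosome and translation initiation genes had 2 of 42, Rpl5 (25, centred 8 bp after the start) and Eif4ebp1, a repressor of cap-dependent translation (25).

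Markers of other cell types that heart tissue holds were read in the same way. Endothelial markers had 1 of 20, Tie1, an endothelial receptor (chromosome 4, 118489807 to 118490004, score 25, 56 bp before the start). Fibroblast and smooth muscle markers and immune and blood markers had none of 20 each, and no heart peak of any class lay at their ends. Of genes typical of other organs, F2, which encodes prothrombin, was the 1 case among 20 liver genes (score 17), and none of 19 kidney genes had one. With counts of 0 to 3 per list these shares are a description and none was tested.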

How the data were processed

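BMAL1 ChIP and input libraries of liver, kidney and heart were grouped by their titles. Per the submitters' processing notes, Bowtie2, SAMtools and HOMER were used on mm10, with versions, roles and filters not given in the sources used here. Per the labels, all ChIP and input replicates of a tissue went into 1 list; the authors' deposited score of each peak has an unstated scale and was used only within a list. Coordinates are counted from 1. Gene ends came from RefSeq GRCm38.p6 (49943 genes on chromosomes) and promoter windows from its sequence table (32851 windows, 27025 genes), which also gave the strand; a tie in distance went to protein-coding genes.

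Peaks overlapping by 1 bp counted as shared. Shares have exact Clopper-Pearson 95% intervals and odds ratios conditional exact ones. Shares of peaks in 4 features were compared by two-sided Fisher's exact tests with Benjamini-Hochberg adjustment over 3 comparisons each (scipy 1.17.1, Python 3.11.15), after tests on simulated data. The heart-only boundary peaks, the gene lists and the rule for named genes (the 20 highest scores with ties, at most 5 genes per list, 3 peaks on each side of the distance limit, the 3 nearest to another list, up to 6 promoters with CACGTG and 2 without) were chosen with earlier results of these data known. Alternatives changed the distance, the overlap rule, the gene set, the score range and the motif search. The genes whose surrounding peaks are described were picked after their values were seen. Some items that the rule names are not reported here.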

Additional observations from a re-analysis of the deposited data

How the results depend on the processing

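The E-box difference from shared heart boundary peaks kept its direction and its call under all 5 of its alternatives, between -31.1 and -25.6 points. No replicate could be left out and no spread between animals exists, because the lists pool all replicates. No paired analysis was possible because the peak lists carry no values per replicate. With each list cut to its upper 50% by score before overlaps were counted, the count of heart-only boundary peaks was 274. That cut also changes which peaks count as heart-only or shared. Within 500 bp of a gene end 13 list genes had such a peak. For the share at starts, the difference from shared heart peaks lost its call at -3.22 points within 500 bp, -2.0 in the upper 50% and -3.66 with protein-coding genes only. The difference from liver-only peaks lost it at 4.38 within 500 bp, 4.74 within 2000 bp, 5.7 in the upper 50% and 4.53 with protein-coding genes only. Within 2000 bp the difference from shared heart peaks kept its call at -9.16. With centres within 1000 bp counted as shared, both calls were kept, at -5.1 (shared heart) and 6.34 (liver-only). The difference from kidney-only peaks, never called, changed sign to 0.523 within 500 bp and 0.019 with protein-coding genes only. For the protein-coding share, the difference from liver-only peaks lost its call at 7.67 in the upper 50%. Within 2000 bp the one from shared heart peaks passed at -5.52 and the one from kidney-only peaks, not called, turned to -0.258. Gene pairs differed from shared heart peaks at -9.07 within 2000 bp. E-box shares passed at -10.7 (liver-only) and -7.32 (kidney-only) with any window overlap, and at -11.4 (liver-only) inside the peak. Counted over the alternative settings of the tested differences, 41 kept their direction and side of the threshold. Another 8 lost their call, 5 gained one and 3 changed sign. The causes were not tested.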
